A study of Mus musculus with 8 samples.

Results

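Meis, Pbx and Pknox genes encode homeodomain transcription factors of the TALE class, named for an extra loop in the DNA-binding domain. The chromatin regions described here are those of Meis1, Meis2, Meis3, Pbx2, Pbx3, Pknox1 and Pknox2 in mouse stem and progenitor cells. Regions were taken where the centre lay nearer to the extent of one of these genes than to any other gene, or inside it, and within 100 kb. This gave 69 of 160978 regions, of which 6 also lay inside a non-coding gene nested in a member. The farthest region lay 31.5 kb from its gene, so the limit of 100 kb left none out.

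ATAC-seq, a read-out of open chromatin by transposase insertion, was done on marrow cells sorted by FACS as cKit+ Lymph- Ery-, which enriches for stem and progenitor cells. Of the 8 libraries, 4 came from mice labelled AML (acute myeloid leukemia), 2 of genotype URE-delta/+;Tet2+/- and 2 of genotype URE-delta/+;Tet2-/-. The 4 normal libraries were 1 each of URE-delta/+;Tet2+/+, URE+/+;Tet2+/-, URE+/+;Tet2-/- and URE+/+;Tet2+/+. URE is the upstream regulatory element of Spi1, the gene of the myeloid factor PU.1, and Tet2 encodes an enzyme that oxidises methylated cytosine. By genotype label, all AML libraries and 1 normal library carried the URE deletion on 1 allele. No normal library carried it together with Tet2 loss, so leukemia and the combined genotype cannot be told apart. The values come from the authors' contrast of leukemic over non-leukemic cells, whose title refers to low PU.1. The sources used here do not name the libraries behind either side, and with 1 normal library labelled URE-delta/+, the non-leukemic arm could hold as few as 1 library. Values per library were not used, so depth and the spread between mice are unknown for every value below, and every fold and adjusted p is the authors' own.

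Meis and Pknox proteins bind the amino-terminal part of Pbx proteins, and the resulting dimers bind DNA alone or together with Hox proteins. Meis1 maintains blood stem cells and, when expressed together with Hoxa9, drives acute myeloid leukemia in mice. Its expression normally falls as progenitors mature into granulocytes and monocytes.

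RefSeq promoter sequences on GRCm38.p6 matched 4 of the 7 genes, Meis1, Meis2, Meis3 and Pbx2. They are shown because each of the 4 lay under a tested region, fully for the Meis genes and over 238 of 300 bases for Pbx2. Each runs from 250 bases before to 50 bases after the start site, read 5′ to 3′ on the gene's strand. Capitals mark the matches, on either strand, to the motifs described after them.
Meis1, chr11:19018920-19019219, minus strand: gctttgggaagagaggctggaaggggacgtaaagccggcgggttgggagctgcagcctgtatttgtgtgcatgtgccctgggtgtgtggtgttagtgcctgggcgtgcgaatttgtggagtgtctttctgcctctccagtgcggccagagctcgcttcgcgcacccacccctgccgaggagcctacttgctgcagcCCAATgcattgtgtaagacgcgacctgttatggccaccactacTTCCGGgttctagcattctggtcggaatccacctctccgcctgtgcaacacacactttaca
Meis2, chr2:116064570-116064869, minus strand: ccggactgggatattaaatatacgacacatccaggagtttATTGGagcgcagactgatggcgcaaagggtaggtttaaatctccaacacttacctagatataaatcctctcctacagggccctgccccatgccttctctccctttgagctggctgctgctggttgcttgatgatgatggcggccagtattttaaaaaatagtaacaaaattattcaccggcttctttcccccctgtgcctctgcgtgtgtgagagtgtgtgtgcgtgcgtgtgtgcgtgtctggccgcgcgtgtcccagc
Meis3, chr7:16175145-16175444, plus strand: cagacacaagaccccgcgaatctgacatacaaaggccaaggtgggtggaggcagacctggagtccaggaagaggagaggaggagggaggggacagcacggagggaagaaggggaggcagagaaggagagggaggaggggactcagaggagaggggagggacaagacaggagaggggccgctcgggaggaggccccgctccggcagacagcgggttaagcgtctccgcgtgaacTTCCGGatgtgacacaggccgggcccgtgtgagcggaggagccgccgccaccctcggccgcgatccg
Pbx2, chr17:34592009-34592308, plus strand: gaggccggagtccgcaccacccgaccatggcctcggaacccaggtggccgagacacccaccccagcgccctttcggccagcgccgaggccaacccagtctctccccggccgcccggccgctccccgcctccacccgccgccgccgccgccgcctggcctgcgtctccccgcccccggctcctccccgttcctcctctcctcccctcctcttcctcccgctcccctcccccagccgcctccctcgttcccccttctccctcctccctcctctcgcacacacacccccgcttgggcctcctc

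The 4 promoters differed in base composition. Pbx2 had 76.0% G and C and 29 CG steps, and Meis2 had 51.0% and 13, with Meis3 at 66.7% and 21 and Meis1 at 58.3% and 15. The medians over 32851 promoters of the same length were 52.7% and 7. Both strands were searched for TGACAG (the Meis and Pknox site), TGATTNAT (Pbx with Hox), GAGGAAGT (PU.1), TGTGGTT (Runx), CCAAT (NF-Y), CACGTG (E-box) and, added after the sequences had been read, CCGGAA (ETS core). No match of these overlapped another in the 4 windows. Meis1 and Meis2 each held 1 CCAAT match, a motif present in 37.4% of all promoters. Meis1 and Meis3 each held 1 CCGGAA match, present in 14.9%. The letters of the Meis and Pknox site, present in 19.2% of all promoters, were not in the 4 windows. Neither were those of the Pbx with Hox, PU.1, Runx and E-box motifs, present in 3.22%, 3.20%, 5.27% and 7.15% of all promoters.

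The engineered loci were examined before the members. Of the 29 regions of Spi1 and Tet2, 5 fell (17.2%) and 0 rose at an adjusted p under 0.001, against 1.22% and 1.24% of all regions. All 5 lay at Spi1, with the lowest at -7.30 (adjusted p = 1.26e-06, the authors' deposited table). The part of the URE deletion itself in these values was not tested. The AML libraries were sequenced in lanes 6 and 7, as were the normal URE-delta/+;Tet2+/+ library in lane 7 and the wild-type library in lane 6. The normal libraries with Tet2 loss alone were in lane 8.

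Meis1 lost accessibility at 3 regions inside the gene in leukemic cells, and no other member had a region that passed the authors' test. Regions are called at an adjusted p under 0.001, the level at which the authors' lists of more and less accessible regions are recovered exactly. Of the 69 regions, 3 fell, or 4.35%, and all 3 belong to Meis1, which has 23 regions. Over all regions 1.22% fell. None of the 69 rose, against 1.24% of all regions. The authors' test of these regions gave an unadjusted p under 0.05 at 22 regions with a negative and 14 with a positive log2 fold change. That is 52.2% of the 69 against 31.3% of all regions. Meis1 held 15 of the 22, and without its regions the share was 45.7%. At a looser adjusted p under 0.05, 12 of the 69 were lower and 5 higher, or 17.4% and 7.25%. The shares over all regions were 9.21% and 7.98%. Of the 12, 10 lay at Meis1, and the 46 regions of the other members had 2 lower and 5 higher. At a stricter 0.0001, 2 fell and 0 rose, against 0.252% and 0.387% of all regions.

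**Figure D1:**
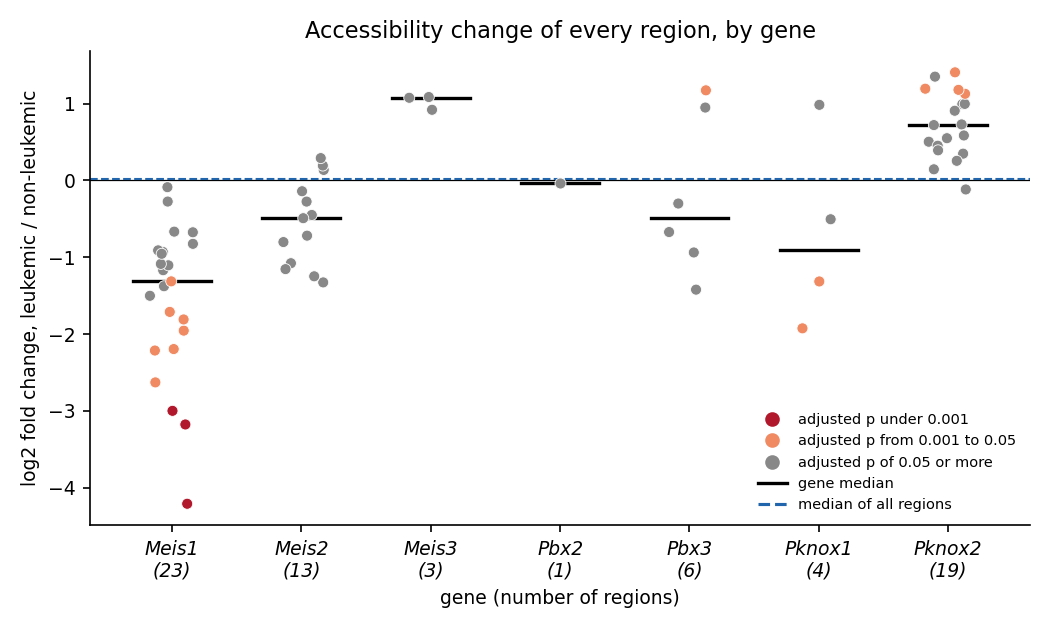
Log2 fold change, leukemic over non-leukemic, of each of the 69 regions (points) by gene, with the gene median (black bar) and the median of all 160978 regions (dashed line, 0.02). All 23 Meis1 points lie below 0, 18 of 19 Pknox2 points lie above 0, and the 3 called regions are all at Meis1.

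The lowest fold change among the members was at chromosome 11, 18924593 to 18925267, a 674 bp region inside Meis1 and 94.0 kb into the gene from its start site. It stood at -4.21 on the log2 scale (adjusted p = 4.76e-07, the authors' deposited table), rank 72 of all regions from the lowest. It was also the most abundant Meis1 region, with a log2 average abundance of 2.89 in the authors' deposited table, above 96.1% of all regions. The second, at 18969823 to 18970740, lay 48.7 kb into the gene and stood at -3.18 (adjusted p = 8.08e-05) with an abundance of 1.92 in the authors' deposited table. The third, at 18883478 to 18884324, lay near the far end of the gene, 135 kb from the start site. Its log2 fold change was -3.00 (adjusted p = 3.18e-04) and its abundance 0.42 in the authors' deposited table. Exons and introns are not separated in the gene table, so all 3 are described only as inside the gene.

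The region over the Meis1 start site did not pass the threshold. It spanned 3136 bp, from 19018054 to 19021190, and stood at -1.81 (adjusted p = 0.00452, the authors' deposited table). A further region, at 19007673 to 19008446, lay 10.9 kb into the gene and stood at -2.22 (adjusted p = 0.00139, the authors' deposited table), just outside the threshold. It lies inside both Meis1 and the nested non-coding gene Gm16141. Deeper in the gene, the regions starting at 18957111 and 18948577 had log2 fold changes of -2.20 and -1.96 by the authors' deposited table, where their adjusted p were 0.0166 and 0.0109. The region starting at 18897390, of low abundance (-1.56), stood at -2.63 (adjusted p = 0.0152, the authors' deposited table). The region starting at 18996859, also inside Gm16141, had -1.71 (adjusted p = 0.0188, the authors' deposited table). Upstream, 7.43 kb beyond the gene extent, the region at 19026571 to 19027593 had -1.31 (adjusted p = 0.0342, the authors' deposited table).

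Every one of the 23 Meis1 regions had a negative log2 fold change, from -4.21 to -0.09, with a median of -1.31. The median of all regions was 0.02, with quartiles of -0.71 and 0.60. The value nearest 0 was -0.09 (adjusted p = 0.931, the authors' deposited table), at 19013728 to 19013967, 5.12 kb into the gene. Values were lower at the more abundant regions. The median over the 8 Meis1 regions with a log2 abundance above 0 was -2.21, and these held the 3 that fell. The 15 others had a median of -0.96. Over all regions the same split gave medians of 0.01 and 0.02, with 4.37% and 0.0911% that fell, so losses passed the test more often at abundant regions across the whole table.

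**Figure D2:**
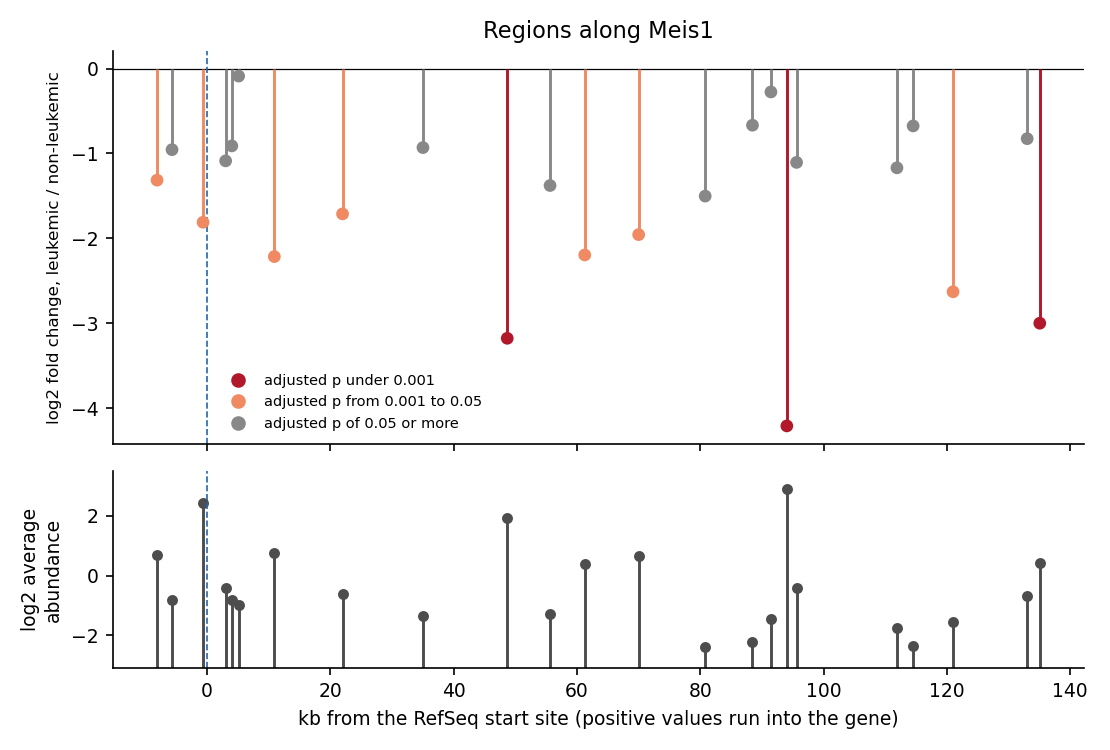
Log2 fold change, leukemic over non-leukemic (top), and log2 average abundance (bottom) of the 23 Meis1 regions by distance in kb from the RefSeq start site (dashed line), with positive distances running into the gene. The called regions lie at 48.7, 94.0 and 135 kb, and the region over the start site stands at -1.81.

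Low values were also found a short way beyond the end of the gene away from its start site. Within 5 Mb on either side, the median log2 fold change of 597 regions of other genes was -0.04, between quartiles of -0.68 and 0.50. Of the 597, 9 fell, or 1.51%, near the 1.22% of all regions. All 23 Meis1 regions lay below that local median. Within 1 Mb, 109 regions of other genes had a median of -0.18. Within 100 kb, 9 regions of other genes had a median of -1.17, which is close to that of Meis1 itself. Of 1216 genes with at least 20 regions, 12 had only negative values. Outside chromosome 2, whose regions beyond 100 kb of Meis2 had a median of -0.56, there were 3, Meis1, Epb41l4b and Gm30820, with medians of -1.31, -1.13 and -1.05. By median, Meis1 ranked 15 from the lowest among the 1216 genes. Of 4252 genes with at least 10 regions, 101 had only negative values, 40 of them outside chromosome 2, and Meis1 ranked 86. These counts were made after the values were seen and are a description only.

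Regions of cell type markers also differed in the same comparison. Stem and progenitor markers had 5 of 112 regions that fell (4.46%, against 1.22% of all regions), at Cd34, Slamf1 and, on chromosome 2, Procr. None rose, against 1.24% of all regions, and the median was -0.36. Of the 8 genes, 6 had a median below 0, while Kit and Hlf had 0.07 and 0.24. Kit, Cd34, Mecom and Hlf are also in the list of Meis1 partners and targets below. Megakaryocyte markers had 2 of 30 that fell (6.67%, against 1.22% of all regions), at Itga2b and Vwf, with a median of -0.55. Itga2b itself had a median of 0.06. By the authors' test, Vwf had an unadjusted p under 0.05 at 4 lower and 4 higher of its 21 regions, 38.1% against 31.3% of all regions. Granulocyte markers had 6 of 24 regions that rose (25%, against 1.24% of all regions), at Elane, Mpo, Ctsg and Gfi1. Their median abundance was 1.37, against -1.17 over all regions. None fell, and the median log2 fold change was 1.12. Cebpe went the other way, with all 3 of its regions below 0 and a median of -0.47. Monocyte markers had 8 of 48 that rose (16.7%), 5 of them at F13a1 and 1 each at Irf8, Ly86 and Ccr2. None fell, and the median was 0.20. Values of the monocyte list ran both ways, since 3 of its 5 genes had a median below 0, with Csf1r at -1.10, Ccr2 at -0.55 and Ly86 at -0.51. At an adjusted p under 0.05, 12 of the 48 were higher and 9 lower, 4 of the 9 at Csf1r. Over all regions 7.98% were higher and 9.21% lower at that level. Mast cell and basophil markers had 1 of 17 that rose (5.88%), at Mcpt8, a basophil gene, and the list had a median of -0.46. The lowest adjusted p at Cpa3 and Ms4a2 were 0.00142 and 0.00542 in the authors' deposited table, at values of -2.67 and -2.39, and neither was called. Erythroid, B cell and T cell markers had 0 called among 20, 70 and 34 regions, with medians of 0.18, -0.16 and 0.38 and an unadjusted p under 0.05 at 4, 6 and 3 regions. Kit, the receptor used for the sort, had 16 regions and none called, and its most abundant region stood at -0.19 with an abundance of 3.26 in the authors' deposited table. The part of these cell types in the Meis1 result was not tested. In sorted bulk cells, fewer cells with an open region and less opening per cell cannot be told apart.

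Meis2, a paralogue of Meis1 that acts in limb and brain development, had values below 0 that were shared with its neighbourhood on chromosome 2. The median log2 fold change of its 13 regions was -0.49, from -1.33 to 0.29. None passed the test, and 3 had an unadjusted p under 0.05, 23.1% against 31.3% of all regions. Within 5 Mb, 654 regions of other genes had a median of -0.93, and 29 of them, or 4.43%, fell. Against that local median the Meis2 median was 0.43 higher, and 9 of the 13 regions lay above it.

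The lowest Meis2 value lay in a cluster of 3 narrow regions inside the gene. The regions starting at 115888816, 115890058 and 115890928, 27.6 to 29.8 kb from the low-coordinate end, stood at -1.08, -1.16 and -1.33 by the authors' deposited table, where their adjusted p were 0.231, 0.105 and 0.0728. At the other end, the region over the annotated start site, 116064042 to 116064887, stood at -0.28 (adjusted p = 0.970, the authors' deposited table). The adjacent broad region at 116065554 to 116067515 had 0.29 (adjusted p = 1, the authors' deposited table). Another broad region there, 1938 bp wide and starting at 116061455, had -1.25 (adjusted p = 0.131, the authors' deposited table). The 4 regions beyond the low-coordinate end lay between -0.49 and 0.19.

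Meis3, the remaining Meis paralogue, which is best known from hindbrain development in Xenopus, had only 3 regions, on chromosome 7, and all 3 had values near 1. The region over its start site, 16174908 to 16175785, stood at 1.08 (adjusted p = 0.113, the authors' deposited table). A region inside the gene at 16183670 to 16183982 had 0.92 (adjusted p = 0.0703, the authors' deposited table). The last, 1.19 kb beyond the gene at 16187565 to 16187826, had 1.09 (adjusted p = 0.103, the authors' deposited table). None passed the test, although all 3 had an unadjusted p under 0.05. The 443 regions of other genes within 5 Mb had a median of 0.55, so the neighbourhood also lay mostly above 0.

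Pbx2 and Pbx3 encode partners that Meis and Pknox proteins bind. Pbx2, a compact gene in the major histocompatibility region of chromosome 17, had a single region, over its start site at 34592071 to 34592340. It stood at -0.03 (adjusted p = 0.964, the authors' deposited table), in the range of the authors' unchanged list, with an abundance of 2.48. That abundance exceeds 94.8% of all regions. The median of 956 regions of other genes within 5 Mb was 0.25.

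Pbx3, which is expressed together with Meis1 and Hoxa9 in human leukemias, had 6 regions in both directions and none that passed the test. The only region under an adjusted p of 0.05 lay inside the gene at chromosome 2, 34249534 to 34249852, at a log2 value of 1.17 (adjusted p = 0.0343, the authors' deposited table). The broad region across the high-coordinate end, 2575 bp wide at 34371029 to 34373604, had 0.95 (adjusted p = 0.0755, the authors' deposited table). The most abundant region, at 34359498 to 34360687 and 12.0 kb from that end, had -0.94 (adjusted p = 0.0653, the authors' deposited table). Beyond the low-coordinate end, the regions starting at 34162529 and 34139794 had -1.42 and -0.67 by the authors' deposited table. The gene median of -0.49 lay below the local median of 0.35 over 1072 regions within 5 Mb. Unlike Meis2, Pbx3 lay in a part of chromosome 2 where the median within 5 Mb was above 0. Closer by, the 7 regions of other genes within 100 kb had a median of -0.33, and 4 of them lay below 0.

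**Figure D3:**
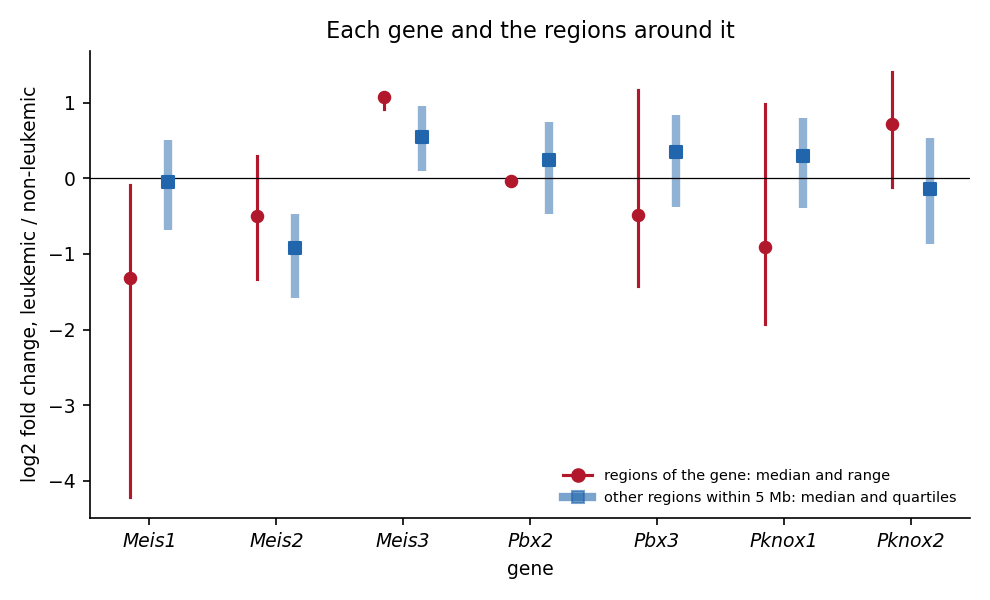
Median and range of the log2 fold changes of each gene's regions (red), beside the median and quartiles of regions of other genes within 5 Mb (blue). Meis1 lies far below its surroundings within 5 Mb (-1.31 against -0.04) and Pknox2 above its own (0.72 against -0.15). Meis2 lies above surroundings that are themselves low (-0.49 against -0.93). Within 100 kb of Meis1, not drawn, 9 regions of other genes had a median of -1.17.

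Pknox1 and Pknox2, also called Prep1 and Prep2, encode the other Pbx-binding TALE proteins, and Pknox1 is needed for blood formation in mouse embryos. None of their 23 regions passed the test. Pknox1 had 4 regions on chromosome 17, of which 2 were lower at an adjusted p under 0.05. The most abundant, inside the gene at 31594441 to 31595167, stood at -1.93 (adjusted p = 0.0269, the authors' deposited table). Another, 5.62 kb beyond the low-coordinate end at 31559002 to 31559197, had -1.32 (adjusted p = 0.0405, the authors' deposited table). The broad region across that end, 2430 bp wide at 31563597 to 31566027, went the other way, with 0.98 (adjusted p = 0.0810, the authors' deposited table). The remaining region, inside the gene, had -0.51 (adjusted p = 0.591, the authors' deposited table). The gene median of -0.91 compares with 0.29 over 1378 regions of other genes within 5 Mb.

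Pknox2 was the member with the most regions above 0. Of its 19 regions on chromosome 9, 18 had a positive log2 fold change, and the median was 0.72, from -0.12 to 1.41. All 19 lay above the local median of -0.15 over 549 regions of other genes within 5 Mb. At an adjusted p under 0.05, 4 regions were higher and 0 lower. The region with the lowest adjusted p, at 37133372 to 37133849, had 1.19 (adjusted p = 0.00987) and an abundance of 1.92 in the authors' deposited table. It lay 13.7 kb inside the high-coordinate end, and a pair of regions between it and that end had similar values. They start at 37139616 and 37143211 and stood at 1.41 and 1.18 by the authors' deposited table, where their adjusted p were 0.0155 and 0.0190. The last of the 4, far from that end at 36970697 to 36970928, had 1.13 (adjusted p = 0.0390, the authors' deposited table).

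At the high-coordinate end of Pknox2 itself the difference was smaller. The region there, 1220 bp wide at 37146377 to 37147597, was the most abundant of all members at 2.97, and stood at 0.39 (adjusted p = 0.317, the authors' deposited table). The only negative region, at 36974823 to 36975138, lies inside both Pknox2 and the nested non-coding gene Gm34652, with -0.12 (adjusted p = 0.898, the authors' deposited table). The 15 regions with an abundance at or below 0 had a median of 0.72 and the 4 above 0 a median of 0.88.

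**Figure D4:**
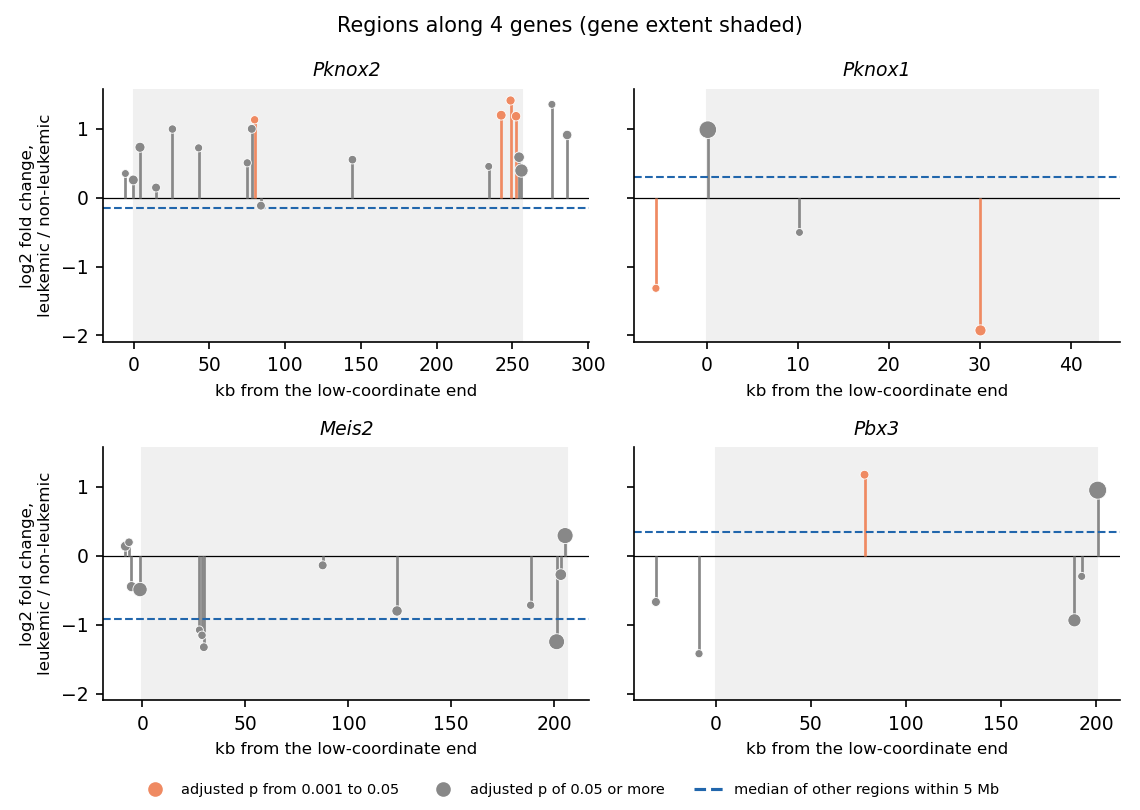
Log2 fold change, leukemic over non-leukemic, of each region by distance in kb from the low-coordinate end of Pknox2, Pknox1, Meis2 and Pbx3 (gene extent shaded, point area rising with region width). The dashed line is the median of other regions within 5 Mb, and the broad end regions of Pknox1 (0.98) and Pbx3 (0.95) stand opposite to most of the narrower regions of the same gene.

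By position, 6 of the 69 regions lay at a gene end (centre within 1 kb of an end of the member), 50 inside and 13 outside. The 3 regions that fell were all inside, where 50 regions had a median of -0.67. The 6 at gene ends had a median of 0.32, from -1.81 at Meis1 to 0.98 at Pknox1, and the 13 outside had a median of -0.45. These classes differ in their genes, since Meis1 held 20 of the 50 inside and 1 of the 6 at gene ends. Inside Meis1 the median was -1.27, above its end region. Pknox2 had 0.73 inside and 0.32 at its ends. At Pbx3 and Pknox1 the end region (0.95 and 0.98) stood above the inside median (-0.30 and -1.22). Gene-end regions were also wider and more abundant, with a median width of 1825 bp and a median abundance of 1.73, against 318.5 bp and -0.85 inside. With gene ends widened to 3 kb, 12 regions lay there, with a median width of 1048.5 bp, a median log2 fold change of 0.49 and a median abundance of 0.01, and the 3 that fell were still inside.

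**Figure D5:**
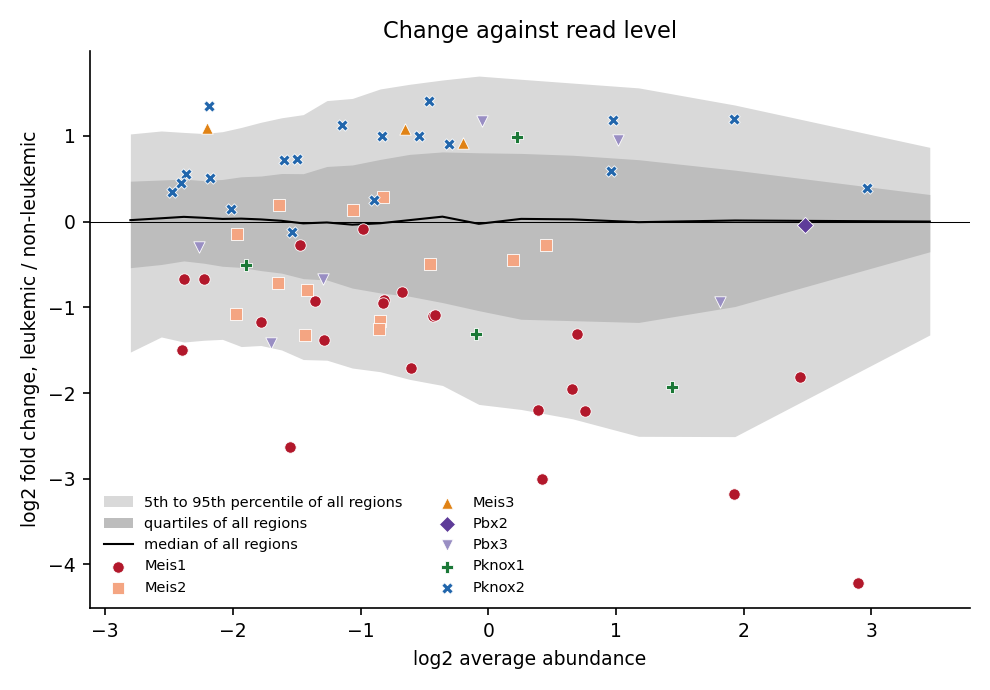
Log2 fold change, leukemic over non-leukemic, against log2 average abundance for the 69 regions, over the percentiles of all regions in 20 equal classes of abundance (grey). The 3 called Meis1 regions, which were selected on these same values, lie below the 5th percentile of regions of like abundance, and Pbx2 lies near the median.

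The other TALE homeobox genes showed 0 calls, where 1.22% of all regions fell and 1.24% rose. Of Tgif1, Tgif2, Irx1, Irx2, Irx3, Irx4, Irx5, Irx6 and Mkx, all 9 had regions, 35 in all, with a median of -0.01. By the authors' test 13 of the 35 had an unadjusted p under 0.05, 8 with a negative and 5 with a positive value. That share of 37.1% is near the 31.3% of all regions. Irx3, a developmental factor, had 1 region at 1.69 (adjusted p = 0.00191, the authors' deposited table). Tgif2, a repressor of TGF-beta targets that lies on chromosome 2, had its lowest adjusted p at a region of -1.69 (adjusted p = 0.0034, the authors' deposited table).

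Partners and known targets of Meis1 with Hoxa9 had calls in both directions. Of 466 regions at 24 genes, 13 fell, or 2.79%, against 1.22% of all regions. Another 8 rose, or 1.72%, near the 1.24% of all regions. Losses lay at 7 genes. Mef2c, a transcription factor of progenitors and lymphoid cells, had 3 losses among its 32 regions, at -3.65, -2.93 and -1.86 by the authors' deposited table. Cd34, a surface protein of progenitors, also had 3, among 7 regions, and these 3 are the ones counted among the stem and progenitor markers. Erg, an ETS factor of stem cells, had 2 among its 50 regions, of which 28 lay below and 22 above 0. Msi2, an RNA-binding protein, had 2 losses among its 54 regions, with the lower at -3.29 by the authors' deposited table. Flt3, a cytokine receptor of progenitors, had 1 among 12 regions, at -2.62 by the authors' deposited table, with a gene median of -0.04. Lmo2, a stem cell factor on chromosome 2, had 1 among 14, at -3.20 by the authors' deposited table. Syk, a tyrosine kinase with 22 regions, had 1 loss at -2.51 and 1 gain at 2.35 by the authors' deposited table.

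Gains among these genes lay at 4, Syk included. Cdk6, a kinase of the cell cycle, had 5 gains among its 50 regions. Myb, a transcription factor of progenitors, had 1 gain among 14 regions, at 2.24 by the authors' deposited table. Epas1, a hypoxia factor, had 1 among 18, at 2.23 by the authors' deposited table. The genes of the Hox partners, Hoxa7, Hoxa9 and Hoxa10, had 7 regions and none called. Their medians were -0.92, -0.61 and -0.25, and the lowest adjusted p of the 3 genes was 0.0586 in the authors' deposited table, at Hoxa7.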

How the data were processed

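Per the submitters' processing notes, reads were processed against GRCm38 (mm10), and Genrich 0.6, SAMtools 1.10.2 and Bowtie2 2.4.1 are named. The authors' deposited table is titled with csaw, which counts reads in windows. The sources used here do not give its settings, normalization or read filters, or whether reads were shifted for the transposase's cut, so all could affect the values. Per region, the authors deposited a log2 fold change (leukemic over non-leukemic), a log2 average abundance (read from the column's position and range), a p-value and an adjusted p-value. The last equals a Benjamini-Hochberg adjustment over all 160978 regions to within 2.39e-15. The authors' lists of 2002 more accessible, 1961 less accessible and 19123 unchanged regions equal an adjusted p under 0.001, by sign, or over 0.9.

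From these, region centres were set against 49997 RefSeq gene extents of GRCm38.p6 (Python 3.11.15, pandas 2.3.3), which assigned 98.8% of regions within 100 kb. A centre inside 2 genes belongs to each. The assignment was tested on simulated data. Members, lists and alternatives were chosen with earlier results of these data known, so no test over a list was made. All 7 genes are named, with every called region and otherwise the region of lowest adjusted p, the most abundant region and that nearest the start site; further regions were picked after their values were seen. Among list genes, those with a called region are named, and Irx3, Tgif2, Kit and the Hoxa genes were added likewise. Deposited coordinates are printed as they are, and the sources used here do not say whether starts count from 0 or from 1. No genome sequence of the regions was used here.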

Additional observations from a re-analysis of the deposited data

How the results depend on the processing

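Leaving out a library was not possible and no paired analysis was possible because the files used hold no values per library; unknown depth limits every fold. The 3 losses and 0 gains were the same with a limit of 20 kb, the nearest protein-coding gene, and abundance at or above the median. None of these settings could remove the 3 losses, which lie inside Meis1, a protein-coding gene, at abundances above the median. At an adjusted p under 0.0001 there were 2 losses and 0 gains; under 0.05 there were 12 and 5. With every region within 100 kb of a member, there were 3 losses and 1 gain, and the member median of -0.45 turned to 0.0919. Chosen after the data were seen, leaving out Meis1 gave 0 losses and a median of 0.27, and giving shared regions to the smallest gene gave 3 losses and a median of -0.30. Minus the chromosome median it was -0.16. Minus the median within 5 Mb, Meis2 turned to 0.43. Among other TALE genes, 2 of 35 regions were lower and 2 higher under 0.05. Among partners and targets, 60 of 466 were lower and 41 higher under 0.05, and 3 and 5 under 0.0001. Over all regions 9.21% were lower and 7.98% higher under 0.05, and 0.252% and 0.387% under 0.0001.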

Other observations

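Non-coding genes on the far side of Meis1, away from its start site, had values below 0, and the regions of 1 on the start-site side lay nearer to 0 or above it. The 4 regions of 8430419K02Rik, a non-coding gene beyond the far end of Meis1, stood at -1.17, -1.03, -1.42 and -2.23 by the authors' deposited table. The last, 3671 bp wide and 3.95 kb from Meis1, had an adjusted p of 0.00123 in the authors' deposited table, just outside the threshold. At Gm31674, farther on the same side, 3 regions within 100 kb stood at -2.02, -1.40 and -0.35 by the authors' deposited table. On the other side of Meis1, 2 regions nearest to 4933406G16Rik had 0.70 and -0.17 by the authors' deposited table.

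The 1 region within 100 kb of a member that rose lay 96.0 kb from Pknox1, nearest to Gm30187, with 2.19 (adjusted p = 1.66e-04, the authors' deposited table). Next to Meis3, a pair of regions nearest to Slc8a2, a sodium and calcium exchanger gene, had 1.66 and 1.59 (adjusted p = 0.00298 and 0.00223, the authors' deposited table).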
